A study of Mus musculus with 6 samples.

Results

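The 10 genes Calml3, Calm4, Serpinb2, Serpinb11, Wfdc18, Wfdc21, Krt1, Krt10, Ivl and Lor belong to the cornified programme, by which the outer layers of stratified epithelia such as the epidermis harden and die, and they were followed here in the thymus. They were taken from 18193 genes that the array annotation names by a single symbol. Every probe set annotated to exactly 1 of these symbols was kept, which gave 13 of 45037 probe sets without the array's controls. The genes were chosen with their values on these same arrays known. Their differences between the crosses and their common variation are therefore descriptions. Calls from the fit over all tested probe sets are given for them but are not read as a test.

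Mice of both crosses were adult females, and the labels give no treatment other than Avertin anaesthesia at sampling. The first cross was (AKR/J x FVB/NJ)F1, here the AKR cross, and the second was (DBA/2J x FVB/NJ)F1, here the DBA cross, with 3 Affymetrix arrays of thymus RNA each. The FVB/NJ parent is common to all of them, and the series asks which genes differ at baseline between the genotypes. Since no label says that the arrays of a cross came from separate animals, SDs, SEs and p-values describe the scatter among arrays, part or all of which may be technical. Levels are deposited log2 values. A difference is the AKR cross minus the DBA cross on that scale, with its standard error (SE) from limma.

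In the medulla of the thymus, epithelial cells display self antigens to developing T cells. Some of these cells pass through a stage that expresses the regulator Aire and then enter a keratinocyte-like end state, seen in the human thymus as Hassall corpuscles. In epidermis, the same programme switches on the keratins Krt1 and Krt10 above the basal layer, and transglutaminases then cross-link precursors such as involucrin and loricrin into the cornified envelope. As a check of the tissue, 13 thymocyte and thymus genes were all above the filter on dim probe sets, with mean levels from 11.24 to 11.34 over the AKR arrays and from 11.16 to 11.20 over the DBA arrays.

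For 7 of the 10 genes, every AKR array was lower than every DBA array. Their cross means differed by 1.46- to 1.89-fold, and the nearest arrays of the crosses by 0.17 to 0.78 on the log2 scale. These 7 were both calmodulin-like genes, both serpins, both WAP domain genes and Krt10. Of all tested probe sets, 22.3% were lower in the AKR cross without overlap, and the 10 genes were chosen with their values known. Krt1 overlapped between the crosses. The envelope precursors Ivl and Lor were dim or had probe sets that disagreed. In whole tissue, fewer cells of a type and less RNA per cell cannot be told apart.

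A probe set was tested where at least 3 of the 6 arrays placed it over their own 40th percentile. Of the 13 probe sets, 9 were tested, for 9 of the 10 genes, and 4 were not. At an adjusted p under 0.05 (limma, Benjamini-Hochberg), 7 of the 9 were called lower in the AKR cross, 0 higher and 2 neither way, against 15.0% lower, 12.2% higher and 27.2% in either direction over all 27385 tested probe sets. The groups did not overlap, with the AKR cross lower, for 7 of the 9 tested (22.3% of all tested probe sets) and for 9 of all 13 (16.3% of all probe sets). They did not overlap with the AKR cross higher for 1 of 13 (19.3% of all probe sets). Because these values chose the genes, nothing is read from the counts. The median difference was -0.83 over the 9 and 0.01 over all tested probe sets.

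**Figure D1:**
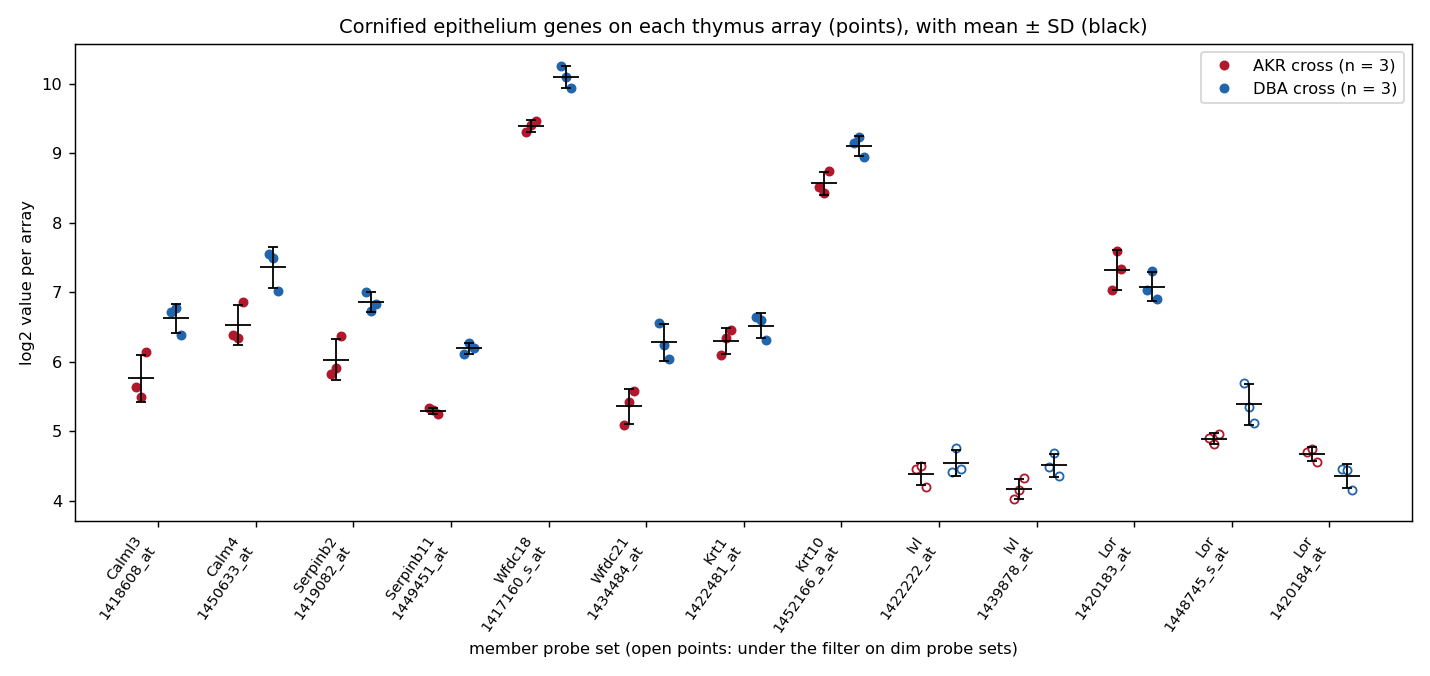
Log2 value (vertical axis) of the 13 probe sets on each array, AKR cross left of DBA cross, with mean ± SD in black (n = 3 each) and open points for the 4 probe sets that were not tested. The highest AKR value of Serpinb11 is 5.34 and its lowest DBA value 6.12, while the arrays of Krt1 overlap.

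The start regions of 4 of the genes are printed first, since these hold the letters TGANTCA, with N for any base. This is a loose form of the AP-1 site, which has C or G in the middle. The middle base is C in Ivl and G in Lor, but A in Serpinb2 and T or A in Serpinb11. They are RefSeq sequences on GRCm38.p6 from 250 bases before the start to 50 after it, given 5′ to 3′. Capitals mark TGANTCA and the TATA box letters TATAAA, both searched on both strands.
Serpinb2 (chr1:107511173-107511472, plus strand): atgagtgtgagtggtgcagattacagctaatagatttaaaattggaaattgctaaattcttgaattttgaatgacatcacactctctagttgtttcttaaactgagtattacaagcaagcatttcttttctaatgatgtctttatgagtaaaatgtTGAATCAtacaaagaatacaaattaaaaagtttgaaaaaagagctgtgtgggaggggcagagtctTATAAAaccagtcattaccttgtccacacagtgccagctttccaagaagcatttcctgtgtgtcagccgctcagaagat
Serpinb11 (chr1:107362064-107362363, plus strand): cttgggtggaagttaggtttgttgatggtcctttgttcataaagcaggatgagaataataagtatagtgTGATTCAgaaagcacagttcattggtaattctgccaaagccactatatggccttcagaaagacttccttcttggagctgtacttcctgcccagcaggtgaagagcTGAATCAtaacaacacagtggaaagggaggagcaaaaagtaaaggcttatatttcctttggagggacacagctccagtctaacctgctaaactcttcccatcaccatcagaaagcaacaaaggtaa
Ivl (chr3:92573686-92573985, minus strand): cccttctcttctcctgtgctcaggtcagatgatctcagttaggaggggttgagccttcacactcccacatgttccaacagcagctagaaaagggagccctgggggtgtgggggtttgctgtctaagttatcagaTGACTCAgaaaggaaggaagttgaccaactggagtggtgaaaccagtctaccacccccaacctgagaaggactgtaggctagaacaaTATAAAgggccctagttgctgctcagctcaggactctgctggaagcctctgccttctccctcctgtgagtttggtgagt
Lor (chr3:92083093-92083392, minus strand): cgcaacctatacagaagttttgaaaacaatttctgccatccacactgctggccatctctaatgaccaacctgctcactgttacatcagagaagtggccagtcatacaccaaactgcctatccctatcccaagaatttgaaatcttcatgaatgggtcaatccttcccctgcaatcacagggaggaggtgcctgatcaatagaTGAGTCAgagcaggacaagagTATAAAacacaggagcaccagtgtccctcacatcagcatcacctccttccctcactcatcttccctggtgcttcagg
The TGANTCA match begins 94 bases before the start in Serpinb2, 181 and 76 bases in Serpinb11, 116 bases in Ivl and 48 bases in Lor. TATAAA begins 29, 29 and 27 bases before the start in Serpinb2, Ivl and Lor, and was not found in the Serpinb11 window. Serpinb2 has a second start, with a window (chr1:107511260-107511559) that is not printed. There TGAATCA begins 181 bases and TATAAA 116 bases before the start. The windows overlap and these are the same sites as in the printed one, so the counts by window include them again. Of the 10 genes, 7 had a window in the table, and Calml3, Wfdc21 and Krt1 had none. The letters TGANTCA were found for 4 of these 7 genes, in 5 of their 8 windows, and in 7.81% of all 32851 windows. TATAAA was found for 5 of 7, Wfdc18 and Krt10 included, in 6 of the 8 windows, and in 13.6% of all windows. The letters AACNGGTT of Grainyhead-like factors were found for 0 of 7, in 0 of the 8 windows, and in 2.09% of all windows. A match describes the letters only.

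Calml3 and Calm4 encode small calcium-binding proteins of the calmodulin family that are found in stratified epithelia. Calm4 is also known as Scarf, skin calmodulin-related factor. Calml3 read 5.64, 5.50 and 6.15 in AKR thymus, against 6.71, 6.77 and 6.39 in DBA thymus. The highest AKR array, replicate 3, stayed 0.24 below the lowest DBA array, also replicate 3, and the difference was -0.86 ± 0.17, or 1.82-fold. Calm4 read 6.38, 6.35 and 6.85 in AKR thymus, against 7.56, 7.50 and 7.02 in DBA thymus, a difference of -0.83 ± 0.18. The same 2 arrays came closest for Calm4, at 0.17 apart.

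Calml3 and Calm4 lie on chromosome 13 with no other protein-coding gene between them in the RefSeq table. Among 7 tested genes of up to 10 on either side, 1 was called lower in the AKR cross, Tasor2 (-0.42 ± 0.09, limma adjusted p = 0.0128), and 0 higher (0 at an unadjusted p under 0.05). Of all 12855 genes tested, 11.5% were called lower, 12.5% higher and 24.0% in either direction. Of 2 other tested calmodulin relatives and calcium-binding proteins, Calml4 was called lower (-1.07 ± 0.14, limma adjusted p = 0.00136) and Calb2 was not called (0.28 ± 0.10, limma adjusted p = 0.0755).

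Serpinb2 and Serpinb11 are clade B serpins, a group that acts mostly inside cells. Serpinb2, plasminogen activator inhibitor type 2, is itself cross-linked into the cornified envelope. Serpinb2 read 5.82, 5.91 and 6.37 in AKR thymus, against 7.01, 6.74 and 6.83 in DBA thymus, a difference of -0.83 ± 0.15 or 1.77-fold. Serpinb11 read 5.34, 5.30 and 5.25 in AKR thymus, against 6.12, 6.27 and 6.20 in DBA thymus. With 0.78 between the crosses and SDs of 0.04 for AKR and 0.08 for DBA arrays (n = 3 each), this was the widest gap among the 13 probe sets. The difference was -0.90 ± 0.09. The AKR values of Serpinb11 lay just over the 40th percentile of their arrays, which ran from 5.22 to 5.28.

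Both serpin genes lie on chromosome 1, with 1 protein-coding gene, Serpinb7, between them. Limma called 0 of 8 tested genes around and between them lower (2 at an unadjusted p under 0.05) and 0 higher (0 likewise). Of 5 other tested clade B serpins, 1 was called lower in the AKR cross and 0 higher (0 at an unadjusted p under 0.05). It was Serpinb1a, an inhibitor of neutrophil proteases, which read 8.06, 8.11 and 8.29 in AKR thymus, against 8.65, 8.78 and 8.82 in DBA thymus (-0.60 ± 0.09, limma adjusted p = 0.00232).

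Wfdc18 and Wfdc21 encode small secreted proteins with a WAP domain, a fold held by disulphide bonds that many protease inhibitors share. Wfdc18, also named Expi, read 9.30, 9.41 and 9.46 in AKR thymus, against 10.26, 10.10 and 9.94 in DBA thymus. It was the brightest of the 10 genes' probe sets, was 1.63-fold lower in the AKR cross (-0.71 ± 0.09), and its probe set is of a type that can match several transcripts. Wfdc21 read 5.09, 5.42 and 5.58 in AKR thymus, against 6.56, 6.25 and 6.04 in DBA thymus, a difference of -0.92 ± 0.16. At 1.89-fold this was the largest fold of the tested probe sets, and 2 of 3 AKR arrays were over the 40th percentile. The order of the arrays within each cross was the same for both genes.

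The WAP pair are adjacent on chromosome 11. Of 14 tested neighbours, 3 were called lower in the AKR cross and 1 higher. Wfdc17, the next gene, was called lower (-0.34 ± 0.09, limma adjusted p = 0.0235), a call lost without AKR replicate 2, AKR replicate 3, DBA replicate 2 or DBA replicate 3. The chemokine gene Ccl6 was also called lower (-0.41 ± 0.12, limma adjusted p = 0.0355), a call lost without AKR replicate 1, AKR replicate 3, DBA replicate 1, DBA replicate 2 or DBA replicate 3. Synrg was called lower (-0.69 ± 0.10, limma adjusted p = 0.00187). Taf15, which encodes an RNA-binding protein, was called higher (1.12 ± 0.16, limma adjusted p = 0.00168). The calls of Synrg and Taf15 were lost with the mean of their probe sets. Of 7 tested WAP domain relatives, 2 were called lower, Wfdc17 and Wfdc2 (-0.72 ± 0.11, limma adjusted p = 0.00301). The 1 called higher was Slpi, secretory leukocyte protease inhibitor (0.34 ± 0.11, limma adjusted p = 0.0461), a call lost without AKR replicate 2, AKR replicate 3, DBA replicate 1, DBA replicate 2 or DBA replicate 3.

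Krt1 and Krt10 encode the type II and type I keratins that pair above the basal layer of epidermis. Krt10 read 8.52, 8.43 and 8.75 in AKR thymus, against 9.14, 9.23 and 8.95 in DBA thymus. The crosses were 0.21 apart, and the difference was -0.54 ± 0.11 or 1.46-fold. Krt1 read 6.10, 6.34 and 6.46 in AKR thymus, against 6.64, 6.61 and 6.32 in DBA thymus. AKR replicates 2 and 3 were higher than DBA replicate 3 here, so the crosses overlapped, with a difference of -0.22 ± 0.13. Whether the partner keratins differed from each other in this was not tested.

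Around Krt10 on chromosome 11, limma called 0 of 6 tested genes lower (0 at an unadjusted p under 0.05) and 0 higher (0 likewise). Around Krt1 on chromosome 15, 1 of 15 was called lower in the AKR cross and 2 higher. The lower one was Krt77, the next type II keratin gene, which read 5.92, 6.20 and 6.40 in AKR thymus, against 6.86, 6.84 and 6.58 in DBA thymus (-0.59 ± 0.14, limma adjusted p = 0.0162). Its call was lost without DBA replicate 2. The higher ones were Krt72 (0.34 ± 0.11, limma adjusted p = 0.0444), lost without any 1 of the 6 arrays, and Spryd3 (0.40 ± 0.09, limma adjusted p = 0.0156), lost without DBA replicate 2.

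Ivl and Lor encode involucrin and loricrin, precursors of the cornified envelope. Both Ivl probe sets were under the 40th percentile on all 6 arrays. Probe set 1439878_at read 4.03, 4.15 and 4.33 in AKR thymus, against 4.49, 4.69 and 4.35 in DBA thymus, a difference of -0.34 ± 0.12 in the fit without the filter. Its crosses were 0.02 apart. Probe set 1422222_at read 4.46, 4.51 and 4.20 in AKR thymus, against 4.42, 4.76 and 4.46 in DBA thymus, and its crosses overlapped.

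The 3 Lor probe sets disagreed. Probe set 1448745_s_at, the one that the annotation ties to a RefSeq transcript, read 4.90, 4.82 and 4.97 in AKR thymus, against 5.69, 5.36 and 5.11 in DBA thymus. It was lower in the AKR cross without overlap (-0.49 ± 0.14, fit without the filter), and 2 of 6 arrays, both DBA, were over the 40th percentile. Like that of Wfdc18, this probe set is of a type that can match several transcripts. Probe set 1420184_at, with no accession, read 4.71, 4.75 and 4.56 in AKR thymus, against 4.46, 4.45 and 4.16 in DBA thymus. It was higher in the AKR cross without overlap and under the 40th percentile throughout. The brightest, 1420183_at, also with no accession, was the one tested. It read 7.03, 7.59 and 7.34 in AKR thymus, against 7.03, 7.31 and 6.90 in DBA thymus, and overlapped (0.24 ± 0.16). No direction is given for Lor.

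Ivl and Lor lie on chromosome 3 in the epidermal differentiation complex, a cluster of genes for envelope and S100 proteins. Of 5 tested neighbours of Lor, 3 were called lower in the AKR cross and 0 higher (0 at an unadjusted p under 0.05). They were S100a8 (-0.96 ± 0.19, limma adjusted p = 0.00796), S100a9 (-0.97 ± 0.22, limma adjusted p = 0.0136) and Sprr2d, a small proline-rich envelope protein gene (-0.38 ± 0.10, limma adjusted p = 0.0245). The S100a9 call was lost without DBA replicate 2, and the Sprr2d call without AKR replicate 1, AKR replicate 2, AKR replicate 3, DBA replicate 1 or DBA replicate 3. Of 5 tested neighbours of Ivl, 2 were called lower, Sprr2d again and Sprr1a (-0.36 ± 0.12, limma adjusted p = 0.04996). The Sprr1a call was lost without AKR replicate 1, AKR replicate 2, DBA replicate 1, DBA replicate 2 or DBA replicate 3 and also after quantile normalization or median centring.

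The rest of the late cornified programme was followed in 56 further genes of envelope proteins, proteases and junctions of the upper epidermis. Of these 50 had a probe set, 27 were tested and 21 were under the 40th percentile on all 6 arrays. Of the 27 tested, 7 were called lower in the AKR cross (25.9%) and 3 higher (11.1%), against 11.5% and 12.5% of all genes tested. The median difference was -0.06, against 0.03 over all genes tested. Rptn, the gene of the envelope precursor repetin, read 4.18, 4.34 and 4.44 in AKR thymus, against 6.03, 5.77 and 5.78 in DBA thymus. All its AKR values were under the 40th percentile. Rptn was tested through its DBA arrays alone, and Il1f9, an interleukin-1 family cytokine gene, through its AKR arrays alone, so both had to differ, and no difference or p is given for either. Without these 2 genes, left out after seeing the data, 6 of 25 were called lower and 2 higher.

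Krtdap, keratinocyte differentiation-associated protein, averaged 7.17 ± 0.15 in AKR thymus and 7.97 ± 0.17 in DBA thymus (SD, n = 3 each), a difference of -0.80 ± 0.12, limma adjusted p = 0.00204. Dmkn, the gene of the secreted protein dermokine, read 7.14, 6.95 and 7.37 in AKR thymus, against 8.18, 8.21 and 7.81 in DBA thymus (-0.92 ± 0.14, limma adjusted p = 0.00256). Crct1, of the same chromosome 3 cluster, averaged 5.32 ± 0.11 in AKR thymus and 6.03 ± 0.12 in DBA thymus (SD, n = 3 each), a difference of -0.71 ± 0.11, limma adjusted p = 0.00249. None of these 3 genes overlapped between the crosses. S100a14 (-0.57 ± 0.09, limma adjusted p = 0.00330), Sprr2d and Sprr1a were also called lower.

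The late genes called higher in the AKR cross, named after their values were seen, were Tgm1, the membrane-bound transglutaminase of the envelope (0.63 ± 0.16, limma adjusted p = 0.0198), Lce3b, a late cornified envelope gene (0.40 ± 0.12, limma adjusted p = 0.0416), and Il1f9, which read 5.37, 5.53 and 5.34 in AKR thymus, against 5.04, 5.05 and 4.77 in DBA thymus. The Tgm1 call was lost without AKR replicate 1 or AKR replicate 3, and the Lce3b call without AKR replicate 1, AKR replicate 2, DBA replicate 1, DBA replicate 2 or DBA replicate 3. Without AKR replicate 1, 6 late genes were called in all. The count called higher was 1 without AKR replicate 1, without AKR replicate 2 and without DBA replicate 3. With a 60th percentile filter, 12 late genes were tested, of which 4 were called lower and 1 higher.

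**Figure D2:**
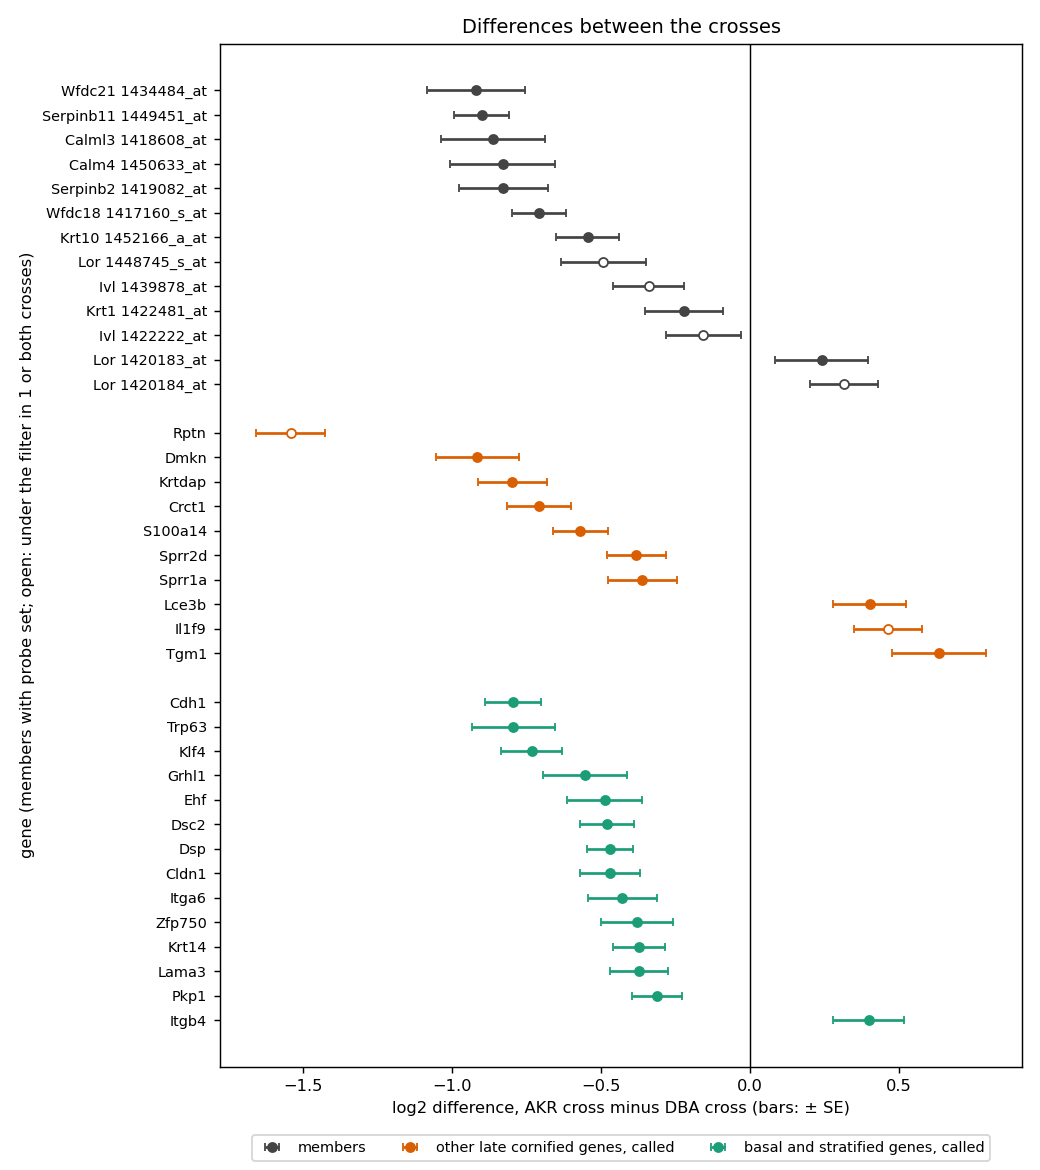
Log2 difference, AKR cross minus DBA cross, with SE (horizontal axis), for the 13 probe sets of the cornified epithelium genes and for the called genes of the late cornified and of the basal and stratified lists. Open points are probe sets that were not tested, and Rptn and Il1f9, which were under the 40th percentile on all arrays of 1 cross, so that their place is not exact. Tgm1, Lce3b, Il1f9, Itgb4 and 2 of the 3 Lor probe sets lie right of 0.

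Among genes of the basal layer and of stratified epithelium in general, 13 of 34 tested were called lower in the AKR cross (38.2%) and 1 higher (2.94%), with a median difference of -0.17. Cdh1, E-cadherin, read 8.14, 8.29 and 8.44 in AKR thymus, against 9.01, 9.19 and 9.06 in DBA thymus (-0.79 ± 0.09, limma adjusted p = 0.000896). Klf4, a transcription factor gene of the epidermal barrier, read 6.11, 6.13 and 6.15 in AKR thymus, against 6.90, 6.70 and 6.99 in DBA thymus (-0.73 ± 0.10, limma adjusted p = 0.00171), and its other tested probe set was not called. Dsp, the desmosome protein desmoplakin, was called lower on all 3 of its tested probe sets (brightest, -0.47 ± 0.08, limma adjusted p = 0.00363). Trp63, the p63 regulator gene of stratified epithelia, read 7.29, 7.67 and 7.66 in AKR thymus, against 8.07, 8.47 and 8.46 in DBA thymus (-0.79 ± 0.14, limma adjusted p = 0.00477), and 2 of its 3 other probe sets were called the same way.

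The basal keratin gene Krt14 was called lower (-0.37 ± 0.09, limma adjusted p = 0.0162), a call lost without AKR replicate 2 or DBA replicate 2. The other tested Krt14 probe set, at -0.07, was not called. Krt5, the partner of Krt14, was not called (-0.18 ± 0.09, limma adjusted p = 0.153), though it was without DBA replicate 3. Both are named after their values were seen. The gene called higher was Itgb4, an integrin gene of hemidesmosomes (0.40 ± 0.12, limma adjusted p = 0.0392), a call lost without AKR replicate 2, AKR replicate 3, DBA replicate 2 or DBA replicate 3. The count of 13 called lower was 8 without AKR replicate 1, 8 without AKR replicate 2 and 7 without DBA replicate 2.

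Medullary and cortical epithelial markers stood beside these lists as follows. Of 20 tested medullary genes, 7 were called lower in the AKR cross and 2 higher, with a median difference of -0.02. The largest difference was that of Cldn4, a tight junction gene, which was higher in the AKR cross and read 8.64, 8.29 and 8.36 in AKR thymus, against 7.20, 6.97 and 7.38 in DBA thymus (1.24 ± 0.13, limma adjusted p = 0.000456). Dclk1, a tuft cell gene, was also called higher (0.44 ± 0.11, limma adjusted p = 0.0227), a call lost without AKR replicate 3, DBA replicate 2 or DBA replicate 3. Avil, also known from tuft cells, was called lower (-0.85 ± 0.11, limma adjusted p = 0.00151). Pou2f3, a further tuft cell gene, was not called (0.13 ± 0.11, limma adjusted p = 0.392). Fezf2, a regulator of self antigens, read 7.42, 7.58 and 7.58 in AKR thymus, against 8.14, 8.06 and 7.86 in DBA thymus (-0.50 ± 0.10, limma adjusted p = 0.00864). Aire read 7.73, 7.81 and 7.94 in AKR thymus, against 8.22, 8.10 and 8.19 in DBA thymus (-0.34 ± 0.09, limma adjusted p = 0.0209), a call lost without AKR replicate 1, AKR replicate 2, DBA replicate 1 or DBA replicate 3. Dclk1, Pou2f3, Fezf2 and Aire are named after their values were seen. Of 14 tested cortical genes, 0 were called lower (4 at an unadjusted p under 0.05) and 3 higher by limma. The difference between these lists was not tested.

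**Figure D3:**
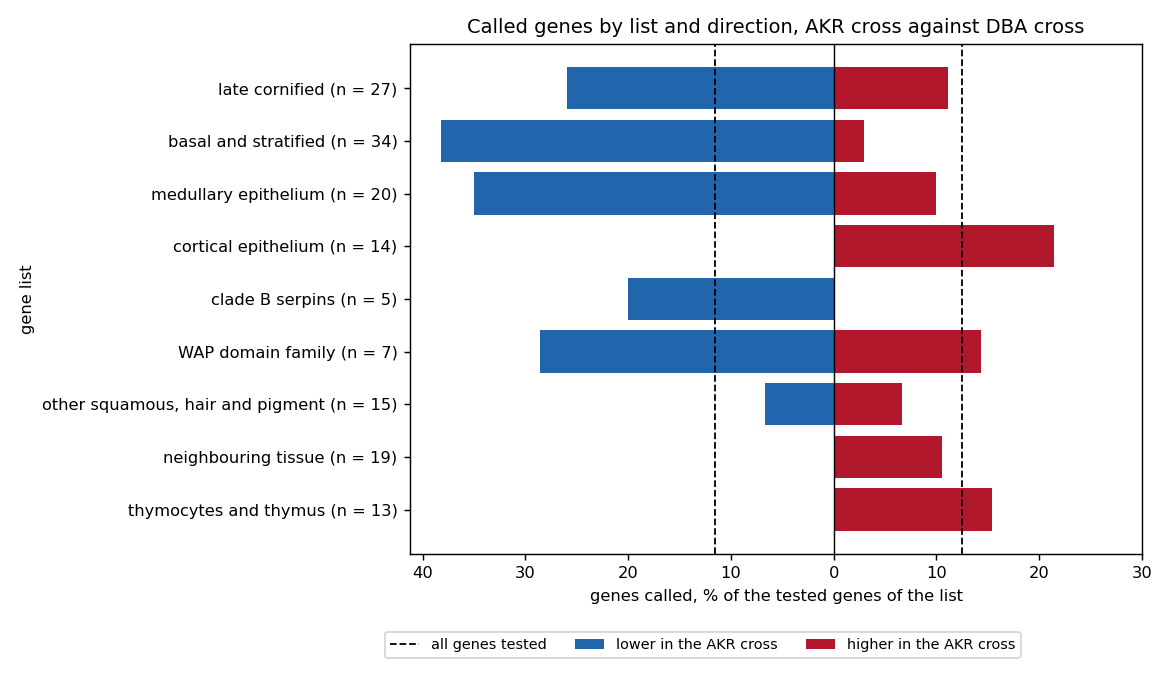
Share of the tested genes of each list (horizontal axis, %) called lower (left) or higher (right) in the AKR cross by limma, with dashed lines at 11.5% and 12.5% for all genes tested. The late cornified and the basal and stratified lists reach 25.9% and 38.2% on the left, and the cortical, neighbouring tissue and thymocyte lists have no gene called there.

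Arrays of the same cross differed as well, and several of the genes moved together. With the mean of its cross taken from each value, AKR replicate 3 was the highest AKR array for 7 of the 10 genes, on the brightest probe set of each, and for 34.4% of all genes tested. DBA replicate 3 was the lowest DBA array for 7 of 10 and for 41.3% of all genes tested. Averaged over the 10 genes, the deviations were -0.13, -0.02 and 0.15 on AKR replicates 1, 2 and 3, and 0.08, 0.09 and -0.16 on DBA replicates 1, 2 and 3. So the AKR array with the highest cornified values and the DBA array with the lowest were both numbered 3.

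**Figure D4:**
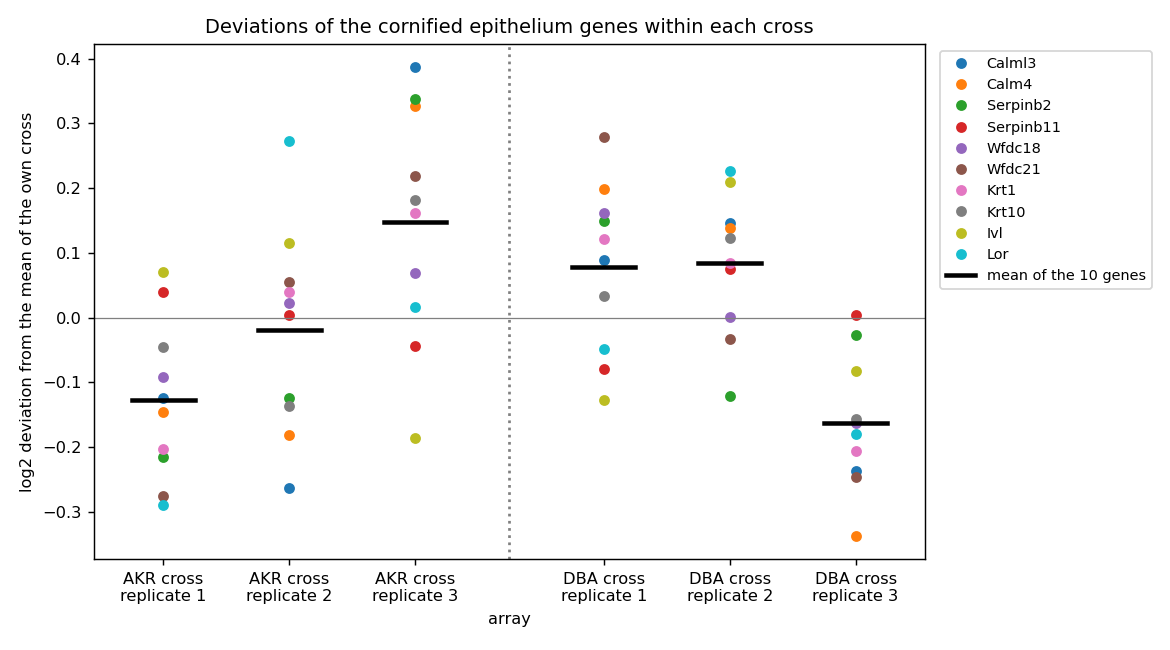
Log2 deviation from the mean of the own cross (vertical axis) on each array, for the brightest probe set of each of the 10 genes (points) and for their mean (black lines). The mean is highest on AKR replicate 3, at 0.15, and lowest on DBA replicate 3, at -0.16.

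Likeness was measured as Pearson's r between a gene's deviations and the mean deviations of the other 9 genes over the 6 arrays, and no p is given. It was 0.96 for Krt1, 0.91 for Calm4, 0.82 for Krt10, 0.81 for Wfdc18, 0.81 for Wfdc21 and 0.79 for Calml3. Krt1, which overlapped between the crosses, was thus closest to the common pattern within them. Serpinb2 had 0.55, Lor 0.43, Ivl -0.29 and Serpinb11 -0.38. The other Ivl probe set had 0.86, the Lor probe set tied to a RefSeq transcript 0.71 and the remaining Lor probe set 0.27. Both Ivl probe sets and this last one were under the 40th percentile on every array. Serpinb11, with the widest gap between the crosses, had a within-cross SD of 0.06, against a median of 0.11 over all genes tested.

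An r of at least 0.8 was found for 5 of the 10 genes, and for 4.78% of all genes tested when set against the mean of the 10. Of the 45 pairs among the 10 genes, 31 had an r above 0, with a median of 0.56. The closest pairs were Calml3 with Krt10 at 0.98, Wfdc18 with Wfdc21 at 0.95 and Calml3 with Calm4 at 0.95. Both pairs of adjacent genes were thus among the closest. The serpins, also near each other in the genome, had -0.78.

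Genes outside the 10 with similar deviations were sought only among 336 tested genes with a within-cross SD of at least 0.3. All 10 genes themselves had a smaller SD, from 0.06 for Serpinb11 to 0.29 for Calm4. Of all genes tested, 614 had an r of at least 0.8, so those named next are the closest of the 336 only. The closest 10 were Lcn2 (r = 0.96), Il3ra (0.92), S100a9 (0.86), S100a8 (0.84), Prg2 (0.83), Rbm45 (0.82), Col6a3 (0.81), Ngp (0.78) and 2 immunoglobulin kappa variable genes (0.85 and 0.77), over 6 arrays. Lcn2, S100a8, S100a9 and Ngp are known from neutrophils and Prg2 from eosinophils, while epithelia also make Lcn2, S100a8 and S100a9. Lcn2 read 6.19, 6.60 and 6.76 in AKR thymus, against 7.15, 7.31 and 6.65 in DBA thymus, overlapped, and was not called (-0.52 ± 0.19, limma adjusted p = 0.0776). S100a8 read 8.94, 9.55 and 9.80 in AKR thymus, against 10.39, 10.58 and 10.21 in DBA thymus, without overlap. Among the lists, 6 of 27 late cornified, 6 of 34 basal and stratified, 5 of 20 medullary and 1 of 14 cortical genes had an r of at least 0.8 with the mean of the 10. So had 3 of 19 genes of neighbouring tissue, 2 of 15 of other squamous epithelia, hair and pigment cells, 1 of 13 thymocyte and thymus genes, 1 of 2 calmodulin relatives, 1 of 5 clade B serpins and 0 of 7 WAP relatives. No difference between lists was tested. The part of granulocyte genes in this variation was not tested.

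Markers of tissue that could be dissected with a thymus were read on the same arrays. Of 30 genes of hair, oral and other squamous epithelia and pigment cells, 15 were under the 40th percentile on all 6 arrays, among them Krt13, Krt76, Krt25, Krt27, Krt35, Tchh, Mlana and Tyr. The 15 tested had mean levels from 5.88 to 5.98 over the AKR arrays and from 5.88 to 5.95 over the DBA arrays, with Krt77 called lower in the AKR cross and Krt72 higher. Krt4, a keratin of oral and oesophageal epithelium, read 5.53, 5.84 and 5.65 in AKR thymus, against 5.63, 5.58 and 5.79 in DBA thymus, and overlapped. Of 25 genes of muscle, fat, parathyroid, thyroid, lymph node, B cells, airway and the like, 19 were tested, with mean levels from 6.60 to 7.37 over the AKR arrays and from 6.60 to 8.06 over the DBA arrays. Of these, Cr2 and Cd79a were called higher in the AKR cross and 0 were called lower by limma (0 at an unadjusted p under 0.05). Acta1, skeletal muscle actin, read 9.19, 9.28 and 6.09 in AKR thymus, against 11.99, 7.30 and 8.39 in DBA thymus, and overlapped. The highest Acta1 value was on DBA replicate 1 and the lowest on AKR replicate 3, where the mean deviations of the cornified genes were 0.08 and 0.15. Acta1 is only 1 of the 19 tested, and 3 of the 19 had an r of at least 0.8 with the mean of the cornified genes. The part of such tissue in the differences was not tested.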

How the data were processed

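Thymus RNA of 6 samples was measured on single-channel arrays, grouped by sample title. The deposited table holds log2 values from the authors. Per the submitters' processing notes, MAS5 and RMA belong to the processing, but their roles and versions and the one behind these values are not stated in the sources read. Differences of dim probe sets depend on the summary used, and whether they are understated here is not known. No normalization was added, and the 64 control probe sets were dropped. Symbols came from the platform annotation. Probe sets with names ending in _s_at or _x_at can match several transcripts, among them those given for Wfdc18, Lce3b, Krt14, S100a8 and Dsp. Of 34945 probe sets with 1 symbol, 34741 matched a RefSeq table (GRCm38.p6) by Entrez identifier, used for names and gene order. Two-sided tests used limma 3.58.1 (lmFit, then eBayes with trend; R 4.3.3), adjusted by Benjamini-Hochberg across 27385 probe sets, or across 12855 genes, each by its brightest tested probe set with 1 symbol. The fit was tested on simulated data. The 10 genes, the gene lists and the tests were chosen with earlier results of these data known. The rule for named genes took all probe sets of the 10 genes and up to 4 called genes of smallest adjusted p from each list. It also took neighbours on the array and the 10 genes of most similar deviations among those with an SD of at least 0.3. Only some of these are given, and genes outside it are marked as named after their values were seen. Calb2, S100a14, Itgb4, Krt4 and Acta1 also lie outside it. Alternatives were other normalizations, filters, a floor, variance models, the replicate number as a block, the mean of probe sets and each array left out. The number of arrays limits the precision.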

Additional observations from a re-analysis of the deposited data

How the results depend on the processing

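The 122 differences of the cornified probe sets under the alternatives kept their sign and moved by less than the spread between replicates. Leaving out 1 array at a time, the median difference of the tested ones was -0.88 to -0.72 and the median likeness r was 0.69 to 0.84, against 0.80 on all arrays. Probe sets called were 5161 to 6317, against 7449, with 2881 to 3706 lower and 2158 to 2978 higher in the AKR cross, against 4111 and 3338. Late cornified genes called were 6 to 10, with 5 to 8 lower and 1 to 2 higher. Basal and stratified genes called were 7 to 11, with 7 to 11 lower and 0 to 2 higher. With the 60th percentile filter, from fewer genes tested, 5 late genes were called, 4 lower and 1 higher. Without the genes that passed the filter through 1 cross, an alternative chosen after seeing the data, 8 late genes were called. With the mean of probe sets, 5 late genes were called higher. The basal genes called higher were 2 with quantile normalization, robust variance, the replicate block or the mean of probe sets, and the cause was not tested. Of 956 results for 65 named genes, 836 kept direction and call, 107 lost the call, 7 gained it and 6 reversed, none of them called. The log2 difference of Krt4 ran from -0.080 to 0.075 with 1 array left out and was -0.012 as the mean of probe sets. The log2 difference of Acta1 ran from -2.002 to 0.34 with 1 array left out.

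With the replicate block 9839 probe sets were called. Deviations of same-numbered arrays correlated at 0.39, 0.07 and 0.37, and those of the other pairs at -0.38 to 0.07. The labels do not say that the numbers pair the samples, and the main fit did not pair them. Whether arrays of the same number share a batch was not tested. Of the 6 arrays, only DBA replicate 2 correlated better with another number. Low signal limits what can be said of Ivl. What can be said of Lor is limited because its probe sets disagreed and only the brightest passed the filter.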
